A study of Mus musculus with 4 samples.

Results

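H3K27me3, the trimethylated form of histone H3 that Polycomb repressive complex 2 deposits through its catalytic subunit Ezh2, was examined at 10 genes that encode secreted fibroblast growth factor (FGF) ligands of embryonic development: Fgf3, Fgf4, Fgf5, Fgf6, Fgf8, Fgf9, Fgf10, Fgf17, Fgf18 and Fgf20. The genes were chosen by name, as 10 of 21951 protein-coding genes of the GENCODE M21 annotation. A peak was assigned to a gene where it lay in the gene or within 10 kb on either side, or where the authors' annotation named the gene. The cells were erythro-myeloid progenitors (EMPs) of C57BL/6 mouse yolk sac at E10.5, a transient progenitor population sorted on surface markers that gives rise to erythroid and myeloid cells before the definitive stem cell lineage takes over. The genotype label of every library reads "Ezh2fl/fl; Tie2-Cre+/+ Wild type", where Tie2-Cre is a recombinase driven in endothelium and its blood progeny, and the cells were taken as wild type, as the study takes them.

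CUT&RUN, in which an antibody directs a nuclease to cut out the DNA around its target, was run on 500 EMPs and on 15000 EMPs. Each cell number had 1 H3K27me3 library and 1 IgG library, the latter made with a non-specific antibody, so that the series held 4 libraries and no replicate. Differences between the libraries therefore have no replicate check and no p-value. The deposited lists held 10223 broad peaks for 500 EMPs and 15282 for 15000 EMPs, with a position but no height, score or read count. Per the study's reporting summary, the library of 500 EMPs had fewer reads and aligned at a lower rate. The library of 500 EMPs had 17 PCR cycles and 76-bp reads and that of 15000 EMPs 16 cycles and 59-bp reads, from different instruments, and peaks were called at p thresholds of 0.01 and 0.05. Cell number cannot be told apart from these settings in any comparison between the libraries.

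FGF ligands bind receptor tyrosine kinases at the cell surface together with heparan sulphate or Klotho coreceptors, and signal through the Ras and MAP kinase cascade. Sprouty, Spred and Dusp proteins dampen that signal, and the Etv transcription factors are among its usual targets. Most of the developmental ligands are expressed in small embryonic signalling centres and are silent elsewhere, and genes with such restricted expression, often with CpG-rich promoters, are typical carriers of H3K27me3. A peak records the mark and is no measure of transcription.

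The mark was found at most of these ligand genes in both libraries. Peaks lay in the gene or within 10 kb for 7 genes with 500 EMPs (Fgf3, Fgf4, Fgf5, Fgf8, Fgf9, Fgf17 and Fgf20), where 15.0% of all protein-coding genes had one, and for 9 genes with 15000 EMPs, where 25.0% had one. Fgf10 and Fgf18 had peaks with 15000 EMPs only, and Fgf6 had none in either library. In all, 26 peaks of the 500 EMPs list covered 16894 bp at these genes and 22 peaks of the 15000 EMPs list covered 59557 bp, each peak counted once where it lay near both Fgf3 and Fgf4. The authors' annotation added 1 peak farther out for 500 EMPs and 3 for 15000 EMPs, described below with Fgf3, Fgf5 and Fgf18.

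**Figure D1:**
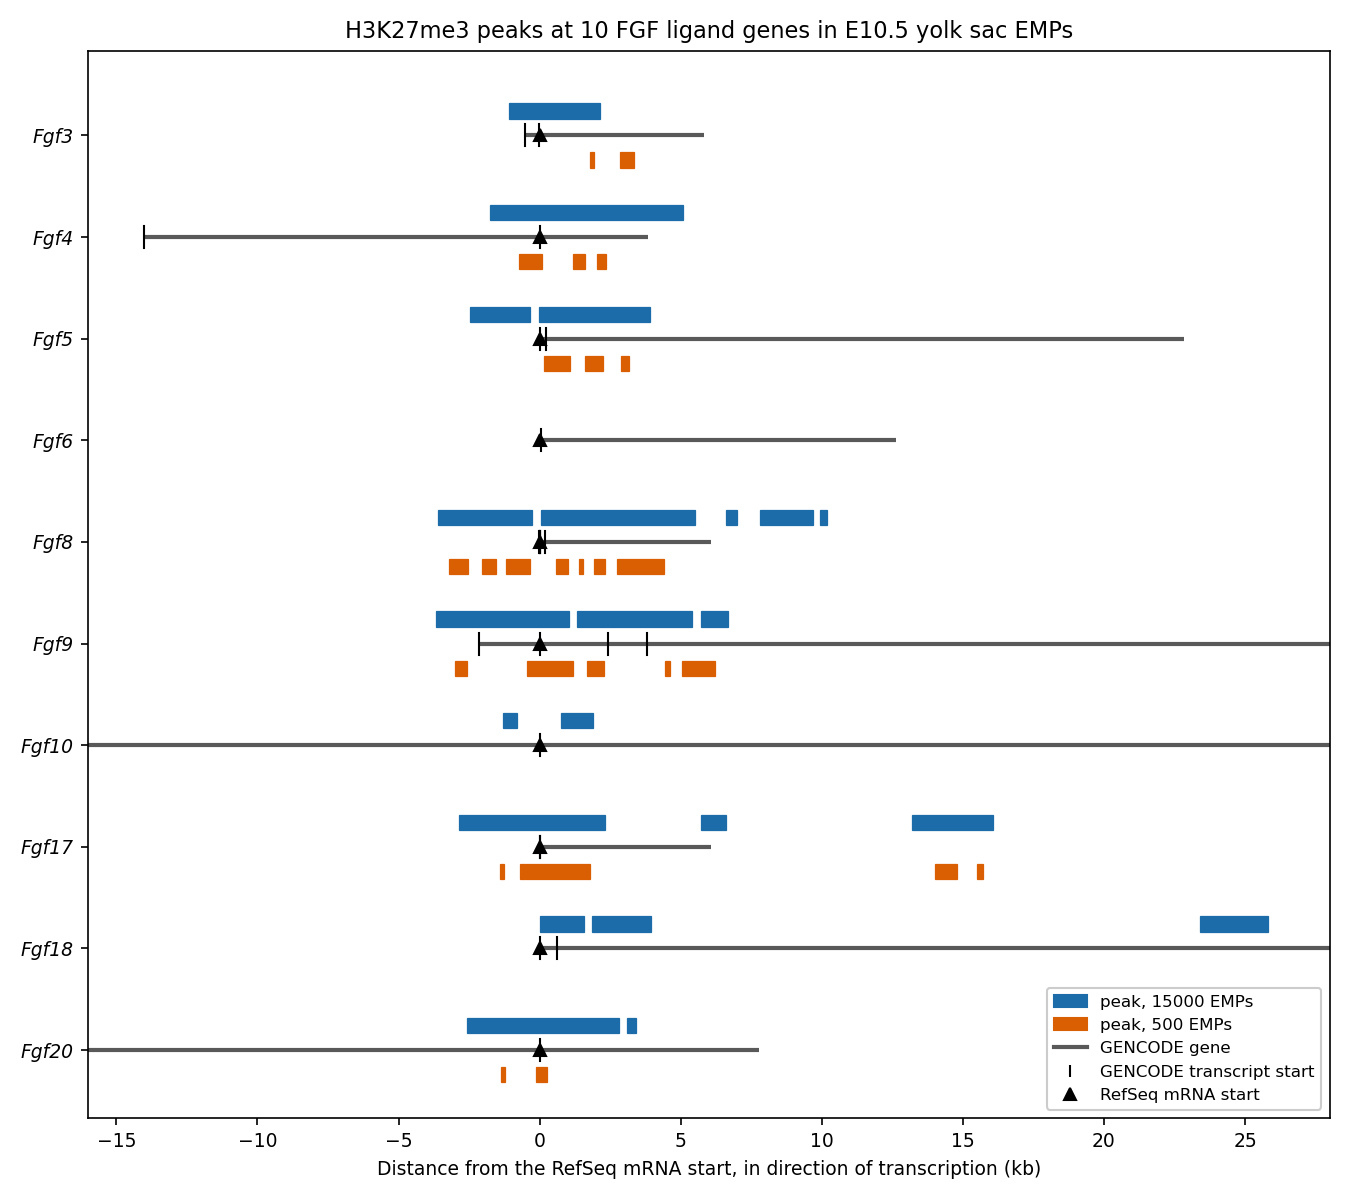
H3K27me3 peaks of both libraries at the 10 FGF ligand genes, drawn by distance in kb from the RefSeq mRNA start in the direction of transcription (the most downstream start where a gene has several). Blue blocks above each gene are peaks of 15000 EMPs and orange blocks below are peaks of 500 EMPs; ticks mark GENCODE transcript starts, and genes running past the axis are clipped. Peaks gather around the RefSeq start of 9 genes, and Fgf6 has none.

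Which start a gene is given decided how many ligands counted as marked there. From the GENCODE gene start, which is the outermost start of any transcript, peaks came within 3 kb of 5 ligand genes in the library of 500 EMPs (9.92% of all protein-coding genes) and of 6 in that of 15000 EMPs (17.0%). From any annotated transcript start the counts were 7 (11.0%) and 9 (18.5%). From the starts of curated RefSeq mRNAs, a definition added after the data were seen, they were again 7 (10.9%) and 9 (18.4%), over the 20327 genes that have such a start. The genes that gained a peak were Fgf4 and Fgf20, in both libraries, and Fgf10, with 15000 EMPs, whose outermost transcripts begin upstream of the RefSeq start by 14019 bp for Fgf4, 21378 bp for Fgf20 and 44908 bp for Fgf10.

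A peak near a start did not always cover it. The GENCODE start lay inside a peak for 1 gene, Fgf17, with 500 EMPs (1.40% of all genes) and for 4 genes, Fgf3, Fgf5, Fgf9 and Fgf17, with 15000 EMPs (8.62%). The RefSeq start lay inside a peak for 4 genes, Fgf4, Fgf9, Fgf17 and Fgf20, with 500 EMPs (1.64%) and for these and Fgf3 and Fgf5 with 15000 EMPs (9.81%). Any transcript start of the gene lay inside a peak for 5 ligand genes with 500 EMPs (2.41%) and 8 with 15000 EMPs (11.4%). After peaks were joined across gaps of up to 3 kb, the GENCODE start was covered for 3 (4.80%) and 5 (11.9%). Among all genes with a peak within 3 kb of the GENCODE start, the start itself was covered in 308 of 2177 (14.1%) with 500 EMPs and in 1893 of 3728 (50.8%) with 15000 EMPs, so uncovered starts were common at marked genes in general.

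The bases upstream of the RefSeq start are shown for 5 genes that span the range from fully inside a peak to no peak nearby. Each run is the 250 bases before the start, 5′ to 3′ on the gene's strand, from RefSeq on GRCm38.p6, with CpG dinucleotides in capitals. Fgf4 is at chr7:144861136-144861385 (+), Fgf9 at chr14:58072436-58072685 (+), Fgf18 at chr11:33147401-33147650 (-), Fgf10 at chr13:118714449-118714698 (+) and Fgf6 at chr6:127015292-127015541 (+).
Fgf4: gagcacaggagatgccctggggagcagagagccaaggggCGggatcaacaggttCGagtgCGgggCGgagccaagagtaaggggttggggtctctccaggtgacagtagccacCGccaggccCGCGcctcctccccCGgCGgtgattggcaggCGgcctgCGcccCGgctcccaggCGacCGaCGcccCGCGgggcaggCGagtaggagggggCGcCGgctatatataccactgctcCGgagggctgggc
Fgf9: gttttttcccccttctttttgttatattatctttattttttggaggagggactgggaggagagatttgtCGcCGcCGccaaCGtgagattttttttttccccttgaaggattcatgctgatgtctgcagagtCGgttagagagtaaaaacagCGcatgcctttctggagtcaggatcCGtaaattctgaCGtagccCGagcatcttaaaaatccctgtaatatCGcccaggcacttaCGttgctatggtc
Fgf18: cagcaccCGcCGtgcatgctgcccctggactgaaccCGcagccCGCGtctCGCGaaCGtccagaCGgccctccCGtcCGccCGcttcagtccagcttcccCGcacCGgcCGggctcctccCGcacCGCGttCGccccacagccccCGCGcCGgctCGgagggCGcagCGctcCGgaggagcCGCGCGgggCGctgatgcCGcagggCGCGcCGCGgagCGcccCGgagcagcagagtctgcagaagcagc
Fgf10: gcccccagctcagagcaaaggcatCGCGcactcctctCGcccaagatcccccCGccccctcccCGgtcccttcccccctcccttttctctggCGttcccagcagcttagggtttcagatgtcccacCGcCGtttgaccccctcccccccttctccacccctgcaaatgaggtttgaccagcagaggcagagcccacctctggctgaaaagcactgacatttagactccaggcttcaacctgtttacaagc
Fgf6: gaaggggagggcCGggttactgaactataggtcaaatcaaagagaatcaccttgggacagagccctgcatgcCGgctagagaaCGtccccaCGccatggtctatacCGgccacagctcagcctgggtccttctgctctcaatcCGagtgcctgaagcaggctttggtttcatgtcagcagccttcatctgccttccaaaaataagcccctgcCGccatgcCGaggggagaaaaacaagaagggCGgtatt

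All 250 bases of the Fgf4 and Fgf9 runs lay in peaks in both libraries, whereas no base of the Fgf18, Fgf10 and Fgf6 runs lay in a peak. The Fgf18 run held 37 CpGs, the Fgf4 run 21, the Fgf9 run 11, the Fgf6 run 9 and the Fgf10 run 8, against a median of 6 over 32851 mouse promoters. The 250 bases before the RefSeq start of Fgf5 and Fgf3, not shown, held 24 and 4. Fgf3 was thus below that median, although its 250 bases lay wholly in a peak with 15000 EMPs. CpG was searched as the letters CG, which read the same on both strands, and 92.1% of all promoters held at least 1. The run with the most CpGs was thus outside the peaks: the Fgf18 peak of 15000 EMPs began 21 bp inside the transcript. Over the 7 ligand genes found in the promoter table, the observed over expected CpG ratio from 250 bases before to 50 bases after the start had a median of 0.774, against 0.384 over all promoters, and 71.4% against 35.8% exceeded 0.6. Those 32851 promoters outnumber the 21951 protein-coding genes and were not limited to them, so the background may differ in kind from the ligand genes. It was 1.02 for Fgf18, 0.880 for Fgf9, 0.828 for Fgf5, 0.774 for Fgf4 and 0.748 for Fgf3, and lower for Fgf6, at 0.441, and Fgf10, at 0.394. Fgf8, Fgf17 and Fgf20 had no entry in the table. With 15000 EMPs, CpGs were denser inside the peaks than around them at all 9 marked loci, with 2.88 per 100 bp inside peaks and 0.938 outside over the pooled loci, each locus being the gene with 10 kb on both sides. For scale, all peaks of that library held 2.35 per 100 bp and the genome 0.826. With 500 EMPs the pooled loci held 2.57 inside peaks and 1.13 outside, against 2.13 over all peaks of that library, and 5 of 7 loci were denser inside. Fgf3, at 0.628 inside and 1.46 outside, and Fgf8, at 2.29 and 2.47, went the other way.

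Fgf8, Fgf17 and Fgf18 form the FGF8 subfamily, and Fgf8 had the most bases in peaks of the 10 genes, 11317 bp with 15000 EMPs and 4709 bp with 500 EMPs in the gene and its 10 kb flanks. Fgf8, a ligand of gastrulation, the midbrain-hindbrain boundary and the limb bud, lies at chr19:45736798-45742915 (-). With 15000 EMPs it had 5 peaks, and the widest, 5432 bp, covered 88.8% of the gene. With 500 EMPs it had 7 peaks of 137 to 1660 bp that covered 43.2% of the gene. Joined across gaps of up to 3 kb, the peaks spanned 13812 bp with 15000 EMPs, the longest of the 10 genes, and 7629 bp with 500 EMPs, where Fgf9 spanned more. The window within 3 kb of the gene start, 6001 bp in all, was covered over 5681 bp with 15000 EMPs and 3081 bp with 500 EMPs. The start itself stayed uncovered in both lists, in a gap between peaks of 320 bp with 15000 EMPs and 922 bp with 500 EMPs. The 3 peaks downstream of the gene, of 256, 1868 and 402 bp, were found with 15000 EMPs only.

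Fgf17, a paralogue of Fgf8 that acts in the midbrain and cerebellum, was the one ligand whose GENCODE start lay inside a peak in both libraries. It lies at chr14:70636203-70642268 (-). The peak over its start was 5159 bp with 15000 EMPs and 2470 bp with 500 EMPs, the latter the widest of the 26 peaks of that list at these genes. Coverage within 3 kb of the start was 5159 bp and 2607 bp. Peaks at the far end of its 10 kb flank, of 2875 bp with 15000 EMPs and of 223 and 782 bp with 500 EMPs, lay in Dmtn, a membrane skeleton gene of red cells, and the authors' annotation gave them to Dmtn. It also gave Dmtn the 910-bp peak of 15000 EMPs, which overlapped both genes.

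Fgf18, a ligand of skeletal and lung development at chr11:33117430-33147400 (-), had 3 peaks with 15000 EMPs, of 2083, 1571 and 2429 bp, and none with 500 EMPs. The nearest peak of 500 EMPs lay 44231 bp from its start. Its peaks ran downstream only, and coverage within 3 kb of the start was 2723 bp with 15000 EMPs. A further peak of 373 bp, 38060 bp beyond the end of the gene, was assigned to Fgf18 by the authors with 15000 EMPs and had no counterpart with 500 EMPs.

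Each gene of this subfamily has a nucleophosmin family gene as its upstream neighbour, transcribed the same way: Npm3 beside Fgf8, Npm2 beside Fgf17 and Npm1, a histone chaperone of the nucleolus, beside Fgf18. This comparison was chosen after the peaks had been seen. The gaps between the genes were 4818 bp, 5033 bp and 4886 bp. No base of Npm3, Npm2 or Npm1, nor of the 3 kb on either side of their starts, lay in a peak in either library. Most protein-coding genes are alike in this, as 9.92% with 500 EMPs and 17.0% with 15000 EMPs had a peak within 3 kb of the gene start, and nothing particular to the Npm genes is read from it. With 15000 EMPs the stretch between the end of the neighbour and the nearest peak was 1237 bp for Npm3, 2188 bp for Npm2 and 4907 bp for Npm1.

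**Figure D2:**
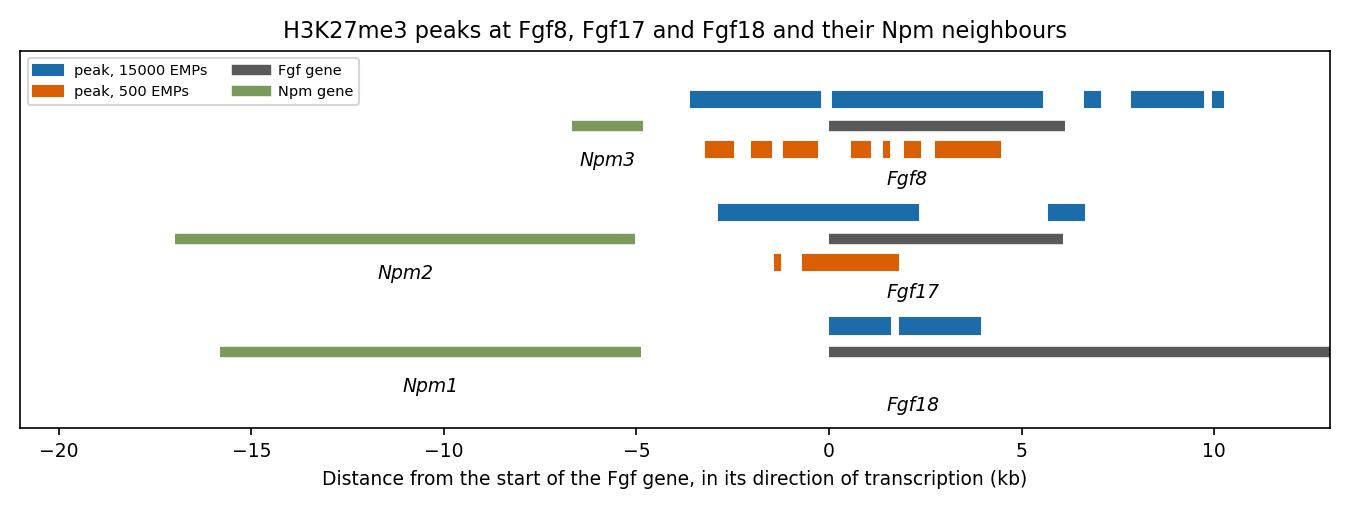
Peaks at Fgf8, Fgf17 and Fgf18 (grey bars) and their upstream Npm neighbours (green bars), by distance in kb from the start of the Fgf gene, with 15000 EMPs in blue and 500 EMPs in orange. The axis ends inside Fgf18, and more distal peaks are not drawn. Peaks sit on the Fgf side, with 0 bp covered in each Npm gene.

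Fgf4, Fgf5 and Fgf6 form the FGF4 subfamily, and ranged from wide peaks to none. Fgf4, a ligand of the early embryo and later the limb bud, lies at chr7:144847367-144865243 (+) and held the widest peak of all at these genes, 6858 bp with 15000 EMPs. That peak took in the RefSeq start and ran past the end of the gene. With 500 EMPs, 3 peaks of 818, 444 and 310 bp lay inside the same stretch, the widest of them over the RefSeq start. Coverage within 3 kb of the RefSeq start was 4770 bp with 15000 EMPs and 1572 bp with 500 EMPs, whereas within 3 kb of the outermost GENCODE start it was 0 bp in both.

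Fgf5, an epiblast ligand best known as a brake on hair growth, lies at chr5:98254184-98277030 (+). With 15000 EMPs, peaks of 2110 and 3946 bp flanked a short gap, and the second reached 36 bp upstream of the start. With 500 EMPs, 3 peaks of 889, 632 and 288 bp all lay downstream, the first 173 bp from the start. Coverage within 3 kb of the start was 5147 bp and 1628 bp. The authors also assigned to Fgf5 a peak downstream of the gene, of 2291 bp with 15000 EMPs at 13899 bp and of 137 bp with 500 EMPs at 14200 bp, the latter wholly inside the former.

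Fgf6, a ligand of skeletal muscle at chr6:127015586-127028187 (+), had no peak. The nearest lay 64168 bp from its start with 15000 EMPs and 273456 bp with 500 EMPs. The 44714 bp between Fgf6 and its neighbour Fgf23 were also free of peaks in both libraries.

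Fgf3, a ligand of inner ear and tail development at chr7:144838083-144844436 (+), had a single peak of 3238 bp over both its GENCODE starts with 15000 EMPs. With 500 EMPs it had an intronic peak of 137 bp within that stretch and another of 500 bp, chr7:144841444-144841943, that lay 677 bp from the nearest peak of 15000 EMPs. The latter was the single one of the 26 peaks of 500 EMPs with no counterpart. A peak of 262 bp, 10562 bp upstream, was assigned to Fgf3 by the authors with 15000 EMPs only. Fgf3 and Fgf4 lie 2930 bp apart, and no base between them was covered in either library. The 31287 bp between Fgf4 and Fgf15 held 4045 bp of peaks with 15000 EMPs and 441 bp with 500 EMPs.

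Fgf10, the mesenchymal ligand that drives limb and lung budding, spans chr13:118669791-118792115 (+) because 2 non-coding transcripts begin far upstream of the coding one. With 15000 EMPs, peaks of 500 and 1125 bp flanked the coding start, 799 bp upstream and 776 bp downstream, with 1574 bp between them. Coverage within 3 kb of that start was 1625 bp, the smallest of the 9 marked genes. With 500 EMPs the nearest peak lay 1248849 bp away.

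Fgf9 and Fgf20 belong to the FGF9 subfamily. Fgf9, a ligand of lung and testis development at chr14:58070547-58112720 (+), had peaks of 4714, 4063 and 955 bp with 15000 EMPs and 5 peaks of 179 to 1626 bp with 500 EMPs. Joined across gaps of up to 3 kb, they spanned 10340 bp and 9204 bp, the closest match in extent between the libraries among the ligand genes. Coverage within 3 kb of the RefSeq start was 5728 bp with 15000 EMPs, the highest of the 10 genes, and 2668 bp with 500 EMPs.

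Fgf20, which acts in the inner ear, kidney and tooth, spans chr8:40279166-40308331 (-). With 15000 EMPs a peak of 5387 bp lay over its RefSeq start and another of 317 bp beside it. With 500 EMPs the start lay in a peak of 403 bp, with a peak of 137 bp nearby. Coverage within 3 kb of the RefSeq start was 5387 bp and 540 bp. All 4 of these peaks were assigned to the neighbouring gene Micu3, at 17926 to 23593 bp, in the authors' tables, which gave Fgf20 no entry. Those tables, which name genes at any distance, held 6 of the ligand genes with 500 EMPs, in 23 entries, where 12.3% of protein-coding genes were named. With 15000 EMPs they held 8, in 21 entries, where 20.7% were named.

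**Figure D3:**
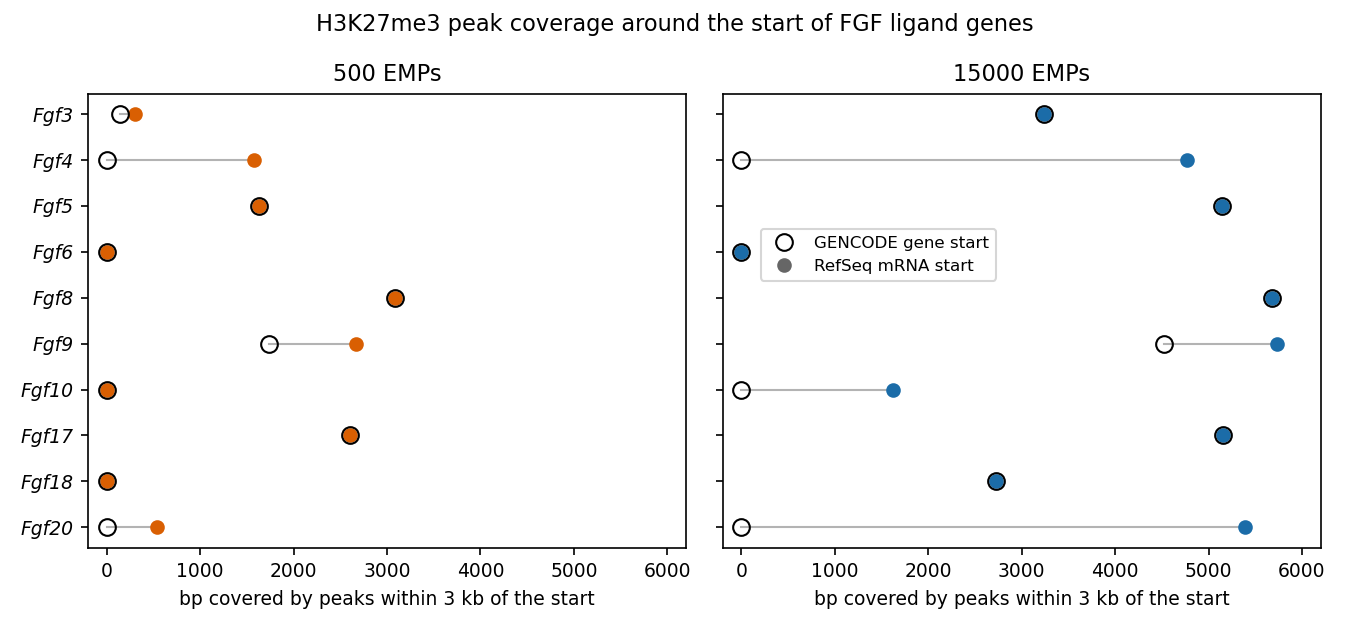
Base pairs covered by peaks in the 6001 bp around the GENCODE gene start (open circles) and the RefSeq mRNA start (filled circles; the start with the most coverage where a gene has several) for each ligand gene, with 500 EMPs on the left and 15000 EMPs on the right. Fgf4, Fgf10 and Fgf20 move from 0 bp at the GENCODE start to 4770, 1625 and 5387 bp at the RefSeq start with 15000 EMPs.

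Over the 10 genes, the median coverage within 3 kb of the RefSeq start was 4958 bp with 15000 EMPs and 1056 bp with 500 EMPs. Over all genes with a RefSeq start it was 0 bp, and over those above 0 it was 2873 bp (3749 genes) and 816 bp (2224 genes). From the GENCODE start the ligand medians were 2980 bp and 68.5 bp, against 2743 bp and 789 bp over genes above 0. With 15000 EMPs coverage rose on both sides of the RefSeq start and dipped at it. The 200 bp at the start were 62.4% covered on average, and the 100-bp bins reached 90.0% first at 850 bp downstream, that is in 9 of 10 genes. Protein-coding genes with a peak within 3 kb showed the same shape, with 47.8% at the start and 63.8% at most, at 1050 bp downstream. With 500 EMPs the ligand genes had 40.0% at the start, which was also their highest value, against 12.0% at the start and 25.9% at most in protein-coding genes with a peak.

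**Figure D4:**
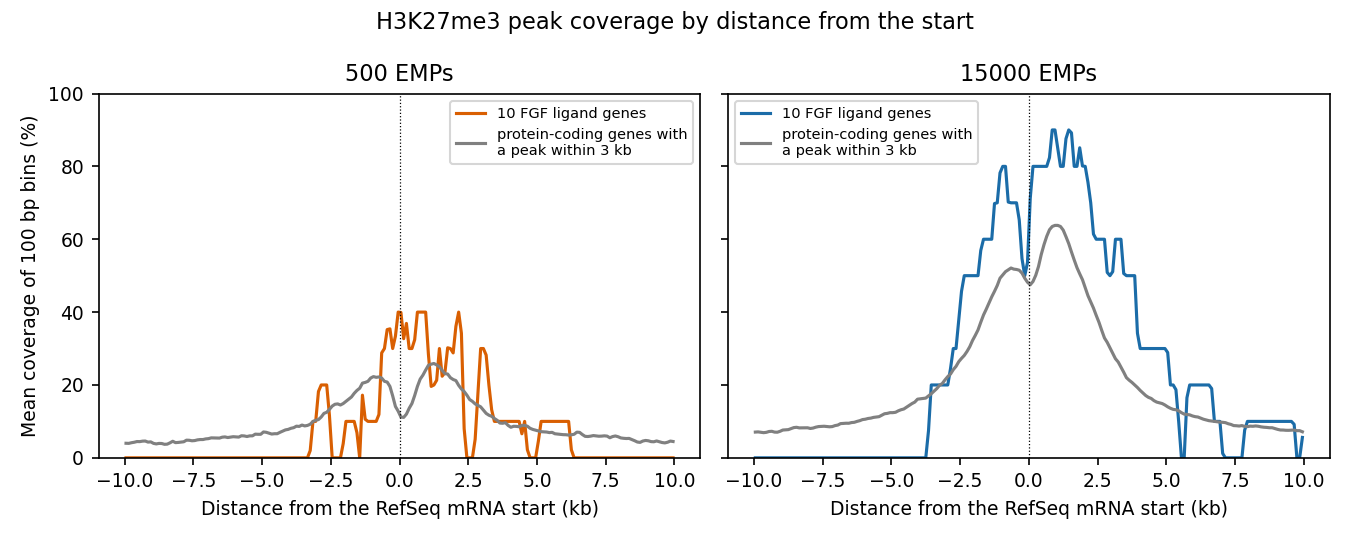
Mean coverage by peaks (%) in 100-bp bins by distance in kb from the RefSeq mRNA start, for the 10 FGF ligand genes (coloured) and for all protein-coding genes with a peak within 3 kb of such a start (grey), with 500 EMPs on the left and 15000 EMPs on the right. The ligand curve of 15000 EMPs reaches 90.0% downstream of the start, with a dip at the start.

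Peaks at the ligand genes were wider than those of the whole 15000 EMPs list, with a median width of 2270 bp against 770 bp. Of the 22, 4 (18.2%) exceeded 5 kb, as did 5.73% of all peaks. The whole list takes in peaks at any distance from a gene, and peaks near other genes were not compared. With 500 EMPs the median was 473 bp against 363 bp, and 4 of the 26 (15.4%) had the smallest width in the list, 137 bp, as did 17.2% of all peaks. The 500 EMPs peaks lay almost entirely inside those of 15000 EMPs: 25 of 26 (96.2%) overlapped one, compared with 91.2% over the whole list, and 94.3% of their bases were shared. In the other direction, 11 of 22 peaks of 15000 EMPs overlapped one of 500 EMPs, compared with 32.2% over the whole list, and 26.8% of their bases were shared. The 11 without a counterpart comprised the 3 of Fgf18, the 2 of Fgf10, 3 beside Fgf8 and 1 each at Fgf5, Fgf17 and Fgf20.

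Fgf8, the ligand with the most coverage within 10 kb of the gene start, was compared with protein-coding genes outside the FGF lists that start over 50 kb away, by which of 400 bins, 200 for each library, were covered. Its own covered bins numbered 158. The most alike of these were Prdm6, with a shared over combined ratio of 0.693, Sox14, with 0.643, and Col2a1, with 0.639, each sharing 133 bins with Fgf8. Prdm6 is a transcriptional repressor of smooth muscle, Sox14 a neural transcription factor and Col2a1 the main collagen of cartilage.

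Of 46 further genes of the FGF pathway, 14 (30.4%) had a peak within 3 kb of a RefSeq start with 500 EMPs and 19 (41.3%) with 15000 EMPs. From the GENCODE start the numbers were 11 (23.9%) and 16 (34.8%). Among 5 other secreted ligands, Fgf2 and Fgf16 had peaks in both libraries, and Fgf1, Fgf7 and Fgf22 had none. Of the endocrine ligands, which act at a distance through Klotho proteins, Fgf15 was marked in both, Fgf21 with 15000 EMPs only and Fgf23 in neither within 3 kb. Of the intracellular FGF homologous factors, which modulate sodium channels rather than receptors, Fgf11, Fgf12 and Fgf14 were marked in both and Fgf13 with 15000 EMPs only.

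The receptors Fgfr1, Fgfr2, Fgfr3 and Fgfr4 each had a peak within 3 kb of a RefSeq start in both libraries, and Fgfrl1, which lacks the kinase domain, did not. From the GENCODE start just Fgfr3 and Fgfr4 counted. Coverage at the RefSeq start with 15000 EMPs was 2044 bp for Fgfr1, 2796 bp for Fgfr2, 2583 bp for Fgfr3 and 3396 bp for Fgfr4. With 500 EMPs it was 137, 1597, 429 and 466 bp. The coreceptor Kl was marked in both libraries and Klb in neither. Among 12 feedback inhibitors and targets, Spry4, Il17rd and Etv4 had peaks in both, and Spry1 and Etv5 with 15000 EMPs only. Of 15 signal transducers from Frs2 to Mapk3, which carry the signal inside the cell, none had a peak near a RefSeq start with 500 EMPs and 1, the docking protein Frs3, with 15000 EMPs.

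**Figure D5:**
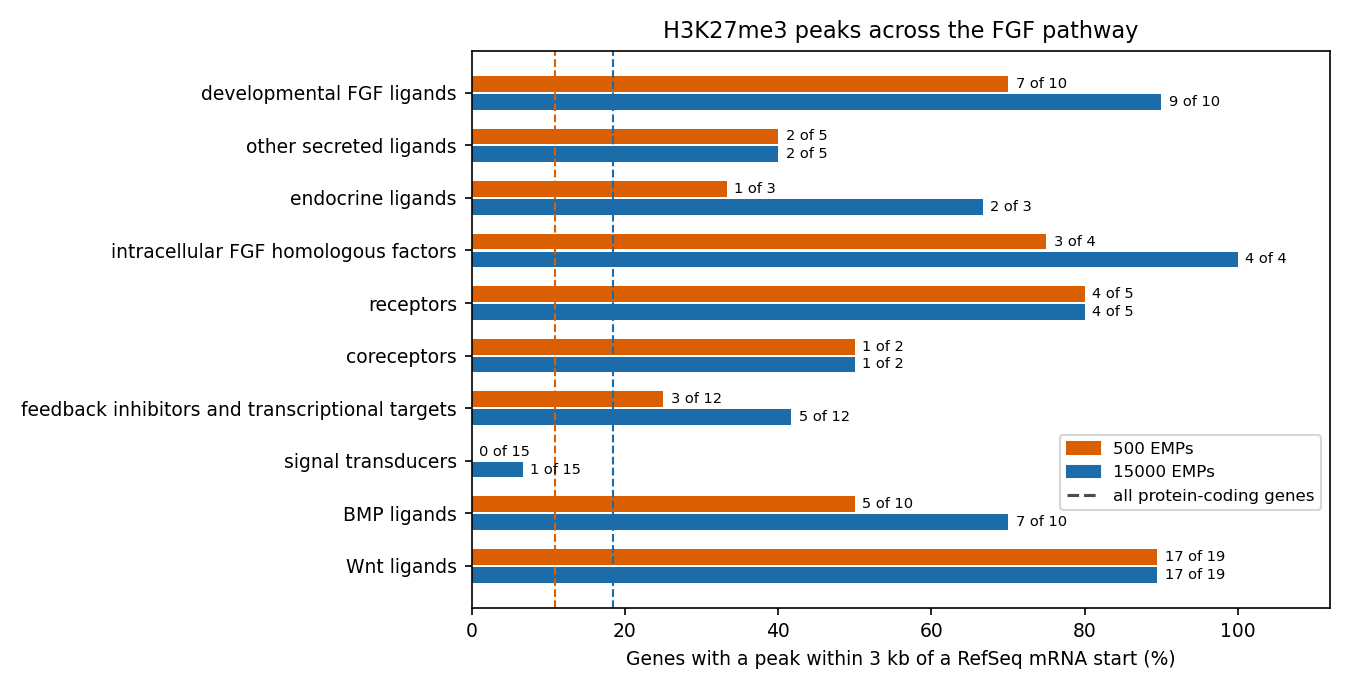
Share of genes (%) with a peak within 3 kb of a RefSeq mRNA start in each list, with counts beside the bars, for 500 EMPs (orange) and 15000 EMPs (blue). Dashed lines give the share over all protein-coding genes with such a start, 10.9% and 18.4%; the developmental ligands stand at 7 of 10 and 9 of 10, and the signal transducers at 0 of 15 and 1 of 15.

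Other secreted ligand families were counted for scale. From RefSeq starts, the developmental FGF genes stood at 7 and 9 of 10, the BMP ligands at 5 and 7 of 10 and the Wnt ligands at 17 of 19 in both libraries. From GENCODE starts, the FGF genes stood at 5 and 6 of 10, with the BMP and Wnt counts as before, so the order of FGF and BMP genes depended on the start. No list was tested against another. Markers of cell types were read the same way, for the mark alone, against 10.9% of all protein-coding genes with 500 EMPs and 18.4% with 15000 EMPs. The lists are short, and counts of 0 to 3 genes are not far from those shares. None of 12 EMP and blood marker genes, among them Kit, Runx1, Myb and Gata1, carried a peak that close to the start with either cell number. All 5 mesenchyme markers did in both (Pdgfra, Twist1, Col1a1, Tbx18 and Hand1), as did 2 of 8 endothelial markers with 500 EMPs (Sox17 and Erg) and 3 with 15000 EMPs, where Kdr was added. Of 6 yolk sac endoderm markers, Foxa2 and Amn had a peak in both libraries, and of 3 primitive erythroid globin genes, Hba-x did.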

How the data were processed

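CUT&RUN for H3K27me3 was read from 2 libraries, 1 of 500 and 1 of 15000 wild type EMPs, and groups were taken from the labels. The authors aligned reads with Bowtie2 2.2.1 to mm10, called broad peaks per library with MACS2 2.1.2 against IgG, at p thresholds of 0.01 for 500 EMPs and 0.05 for 15000 EMPs, and annotated them with ChIPpeakAnno 3.20.1. The study's listing of peak-calling commands names the libraries the other way round under these thresholds, and the deposited files were taken as labelled. The library kit is given differently in the labels and the methods. The deposited files hold peak positions in bp (1-based here) and the authors' gene, category and distance for each peak, without height, score, p-value or count, so that a peak was present or absent, with no measure of its precision. Reads were fewer, and the aligned share of them smaller, in the library of 500 EMPs, per the reporting summary, and the lists cannot be corrected for this.

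Peaks were placed against GENCODE M21 gene starts on GRCm38, the same assembly, and, as alternatives, any transcript start and RefSeq NM starts, by scripts in Python 3.11.15 (pandas 2.3.3, numpy 2.4.6) that were tested on simulated windows with known answers. Overlap meant at least 1 bp. With 1 library per group no test was run, and counts are set beside the share of all protein-coding genes. All 10 ligands were named. Of each other list, the genes named had a peak in both libraries or, where few, lacked one. Spry3 was not matched in the annotation. Genes marked in 1 library alone or from RefSeq starts alone, and Dmtn, Micu3 and the Npm genes, were named after their values were seen. The likeness ranking took protein-coding genes outside the FGF lists that start over 50 kb from Fgf8. IgG libraries were not analysed here beyond the authors' use. The genes and lists were chosen with earlier results of these data known.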

Additional observations from a re-analysis of the deposited data

How the results depend on the processing

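Over 72 alternatives for 18 results, 51 changed the count or median by at most 1.5 times and 21 by more. The number of ligand genes with a peak within 3 kb of the start is among the former although it went from 5 to 7 with 500 EMPs and from 6 to 9 with 15000 EMPs under other starts. The ligand genes with a peak over the start were 1 with 500 EMPs from the gene start, 5 from any transcript start, 3 after joining peaks within 3 kb and 4 from RefSeq starts, and with 15000 EMPs 4 from the gene start and 8 from any transcript start. The 26 peaks of 500 EMPs became 12 joined within 1 kb and 8 within 3 kb, and the 22 of 15000 EMPs became 14 and 12. Median coverage with 500 EMPs, 68.5 bp, was 0 bp in a 1 kb window or without the shortest peaks, 637 bp in a 10 kb window, 346 bp after joining and 1056 bp at the best transcript start. With 15000 EMPs, 2980 bp became 1267 bp in a 1 kb window and 4964 bp at the best transcript start. Of the peaks of 500 EMPs, 25 overlapped one of 15000 EMPs, 8 of 8 after joining, and 0 when 50% of both peaks had to be shared. Of those of 15000 EMPs, 11 overlapped, 3 when 50% of the peak had to be, and 0 with 50% of both. Within 1 kb, with 500 EMPs, 6 rather than 11 further FGF pathway genes and 3 rather than 5 BMP genes had a peak. RefSeq starts and the best transcript start were chosen after seeing the data. A stricter peak threshold could not be applied to lists without scores, and peaks of at least 500 bp stood in for it. No paired analysis was possible because each group had 1 library. The library of 500 EMPs was the shallower, and no alternative corrects for depth. Genes without a peak with 500 EMPs, among them Fgf10 and Fgf18, lacked a called peak, and whether they lacked the mark cannot be told.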
